A study of Mus musculus with 17 samples.

Results

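The genes described here are 53 genes of proliferation and DNA replication, measured in cultured mouse islets. They were listed by name, with earlier results of these data known, and no measured change enters the rule. Each was read from the probe set with the highest mean over all arrays among those annotated with that gene's symbol alone. Of the 53, 52 were measured, out of 18193 genes with such a probe set. Ccnb1, the gene of cyclin B1, had no probe set with its symbol alone and was not analysed here. The 52 genes fall into 13 that prepare or carry out DNA replication and 39 that act at mitosis and cytokinesis.

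The samples were pancreatic islets of C57BL/6 mice, clusters of hormone-secreting cells, chiefly insulin-secreting beta cells, with vessels, macrophages and stromal cells among them. Islets of 4 mice were pooled in each of 6 batches, and each pool was divided into portions cultured for 0, 24 or 48 h in F12K medium with fetal bovine serum. The labels name no transgene, drug or age, so the groups differ by time in culture alone as far as they say. There were 5 arrays at 0 h, 6 at 24 h and 6 at 48 h, 1 per batch and time; for batch 5 the 0 h portion is not analysed here, and batch number serves below as replicate number. Values are RMA signals of Affymetrix whole-genome mouse arrays on a log2 scale, so a difference of -1 is a halving of signal.

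A cell that divides first loads the MCM helicase onto replication origins, then raises cyclin E activity, nucleotide supply and the sliding clamp PCNA to copy its DNA, and later raises cyclin A, cyclin B and the kinase CDK1 to enter mitosis. The genes of the first wave are classically driven by E2F factors, and those of the second by the MuvB complexes that bind the CHR promoter element and by NF-Y at CCAAT boxes. Most endocrine cells of the adult islet rarely divide, and islets also hold endothelial and immune cells that can divide.

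The promoters of 6 genes that the results turn on, 4 mitotic and 2 of replication, are printed to show which regulatory elements their letters hold. They are the 250 bases before the start site, 5′ to 3′ on the gene's strand, from RefSeq on build GRCm38.p6. Capitals mark matches on either strand to the CHR (TTTGAA, or TTCAAA on the other strand), the CCAAT box (CCAAT or ATTGG) and an E2F word (TTTCCCGC, TTTGGCGC, TTTCGCGC or TTTGCCGC, or its complement). Mki67, Top2a, Cdk1 and Cdc20 are mitotic, and Rrm2 and Mcm7 act in replication.
Mki67, chr7:135716380-135716629, minus strand: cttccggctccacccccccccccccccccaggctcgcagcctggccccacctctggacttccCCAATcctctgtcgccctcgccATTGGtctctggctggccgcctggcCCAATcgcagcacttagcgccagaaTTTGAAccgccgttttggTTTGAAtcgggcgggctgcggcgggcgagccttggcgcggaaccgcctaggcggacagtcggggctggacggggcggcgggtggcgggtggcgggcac
Top2a, chr11:99024190-99024439, minus strand: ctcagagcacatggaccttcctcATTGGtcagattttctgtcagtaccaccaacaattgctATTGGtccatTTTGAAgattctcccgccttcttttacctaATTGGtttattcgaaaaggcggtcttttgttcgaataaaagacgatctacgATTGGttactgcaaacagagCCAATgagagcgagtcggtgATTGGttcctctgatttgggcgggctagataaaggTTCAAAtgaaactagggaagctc
Cdk1, chr10:69352913-69353162, minus strand: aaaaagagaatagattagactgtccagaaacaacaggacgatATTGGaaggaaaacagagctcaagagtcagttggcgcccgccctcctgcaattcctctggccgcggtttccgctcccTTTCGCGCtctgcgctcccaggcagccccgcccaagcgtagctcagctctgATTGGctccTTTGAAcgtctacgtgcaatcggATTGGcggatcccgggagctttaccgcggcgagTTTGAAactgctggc
Cdc20, chr4:118437344-118437593, minus strand: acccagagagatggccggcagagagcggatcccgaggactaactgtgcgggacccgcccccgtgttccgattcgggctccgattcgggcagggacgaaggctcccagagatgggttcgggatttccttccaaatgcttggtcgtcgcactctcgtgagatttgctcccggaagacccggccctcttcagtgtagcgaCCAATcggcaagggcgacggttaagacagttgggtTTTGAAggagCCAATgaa
Rrm2, chr12:24708004-24708253, plus strand: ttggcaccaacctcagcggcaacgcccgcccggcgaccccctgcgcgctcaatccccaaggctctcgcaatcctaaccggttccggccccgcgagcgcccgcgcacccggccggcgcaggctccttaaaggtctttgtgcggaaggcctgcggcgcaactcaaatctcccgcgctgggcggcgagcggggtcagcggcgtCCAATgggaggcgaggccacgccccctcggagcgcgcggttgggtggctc
Mcm7, chr5:138171884-138172133, minus strand: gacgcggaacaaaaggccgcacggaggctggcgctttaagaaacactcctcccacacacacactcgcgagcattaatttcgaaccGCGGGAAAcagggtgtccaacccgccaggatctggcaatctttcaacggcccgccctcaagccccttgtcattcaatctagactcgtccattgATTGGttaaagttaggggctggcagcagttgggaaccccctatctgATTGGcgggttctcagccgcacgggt
Mki67, Top2a and Cdk1 each had 2 CHR matches in the printed bases, and Cdc20 had 1, at -18 from the start. Rrm2 had neither a CHR nor an E2F match and a single CCAAT box at -50, while Mcm7 had an E2F word at -165 and CCAAT boxes at -72 and -26. Mcm7 had 2 windows in the RefSeq table, and the one with more kinds of match is printed.

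Over the window from 250 bases before to 50 bases after the start, 45 of the 53 genes had an entry. Of the 34 mitotic genes with an entry, 25 (73.5%) held a CHR match, against 1 of 11 replication genes (9.09%, Mcm2) and 20.2% of the 27025 mouse genes in the same table. For the E2F words the order was the other way round, with 4 of 11 replication genes (36.4%; Mcm3, Mcm5, Mcm6 and Mcm7), 1 of 34 mitotic genes (2.94%, Cdk1) and 2.6% of all genes. CCAAT boxes were found at like shares on both sides, in 25 of 34 mitotic genes (73.5%) and 8 of 11 replication genes (72.7%), with 41.1% in all genes. Both a CHR and a CCAAT match, in any of a gene's windows, were held by 22 mitotic genes (64.7%) and by 8.97% of all genes. A gene with several windows was counted once if any of them held the match. These are matches of letters in a fixed window, with no measurement of binding.

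The gap between 3' and 5' actin probe sets, which widens with RNA decay, averaged 2.14 (SD 0.11) over the 0 h arrays, 2.10 (SD 0.15) over the 24 h arrays and 2.02 (SD 0.13) over the 48 h arrays. Replicate 3 at 0 h and replicate 5 at 24 h stood somewhat apart from the others of their time, with median correlations of 0.987 and 0.988 across probe sets. Without both, 20 of the 52 genes fell at 24 h and 26 at 48 h, beside 23 and 27 with them.

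At 24 h, 23 of the 52 genes had fallen against 0 h and 0 had risen. Over all 18193 genes 6.66% fell and 5.44% rose in the same comparison. At 48 h 27 had fallen and 0 had risen, with 5.27% of all genes falling and 6.45% rising. At an unadjusted p under 0.05 the counts of higher genes were 1 at 24 h (Pcna) and 0 at 48 h. A gene counts as changed where limma's adjusted p, taken over all 45037 probe sets, was under 0.05. The median difference of the 52 genes was -0.39 at 24 h and -0.40 at 48 h, while the median of all genes was -0.0105 and -0.0173. In RNA from whole islets, fewer dividing cells and less RNA per cell cannot be told apart. Both comparisons use the same 0 h arrays, so they do not count as independent of each other.

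No further change passed the test after 24 h. Between 24 and 48 h, 0 of the 52 genes fell and 0 rose by limma's adjusted p (5 at an unadjusted p under 0.05), against 0.330% and 0.429% of all genes, and the median difference was -0.06. In all, 21 genes fell at both times. Bub1 and Prc1 were called at 24 h alone, with 48 h differences of -0.40 (adjusted p = 0.0656) and -0.42 (adjusted p = 0.0959). Mad2l1, Ube2c, Cenpe, Kif22, Nusap1 and Anln were called at 48 h alone. The remaining 23 genes passed at neither time. A call at 1 time and not at the other is no test of a difference between times.

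The direction within culture batches was also read. The called genes were called on these same arrays, so their agreement across batches is no separate support. Of all 52 genes, 32 were lower in 5 of 5 batches at 24 h. The share of all genes by this measure was not worked out. Of the 23 genes that fell at 24 h, 22 were lower in 5 of 5 batches measured at both times, the exception being Bub1. Of the 27 that fell at 48 h, 25 were lower in 5 of 5 batches, Nusap1 and Tpx2 being lower in 4. For 17 of the 52 genes every 24 h array lay below every 0 h array, against 4.85% of all genes, and for 15 genes every 48 h array did, against 4.00%. Signals below the table's median of 3.52 were not separated from background, so the size of a change that reaches below it is poorly measured. Of the 30 genes whose mean over all 17 arrays lay above that median, 15 fell at 24 h and 16 at 48 h. The shares of all genes above the median were 8.96% and 6.51%. That mean includes the 0 h arrays, so a gene that fell can enter through its 0 h level. Rrm2 had means of 5.21, 3.16 and 3.69 at 0, 24 and 48 h, and Cenpf 4.36, 3.54 and 3.42. These counts are thus no separate support for falls above background. Aurkb, Bub1, Ttk, Cenpe, Kif20a, Kif2c, Kif4 and Hmmr stayed below it on all 17 arrays.

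**Figure D1:**
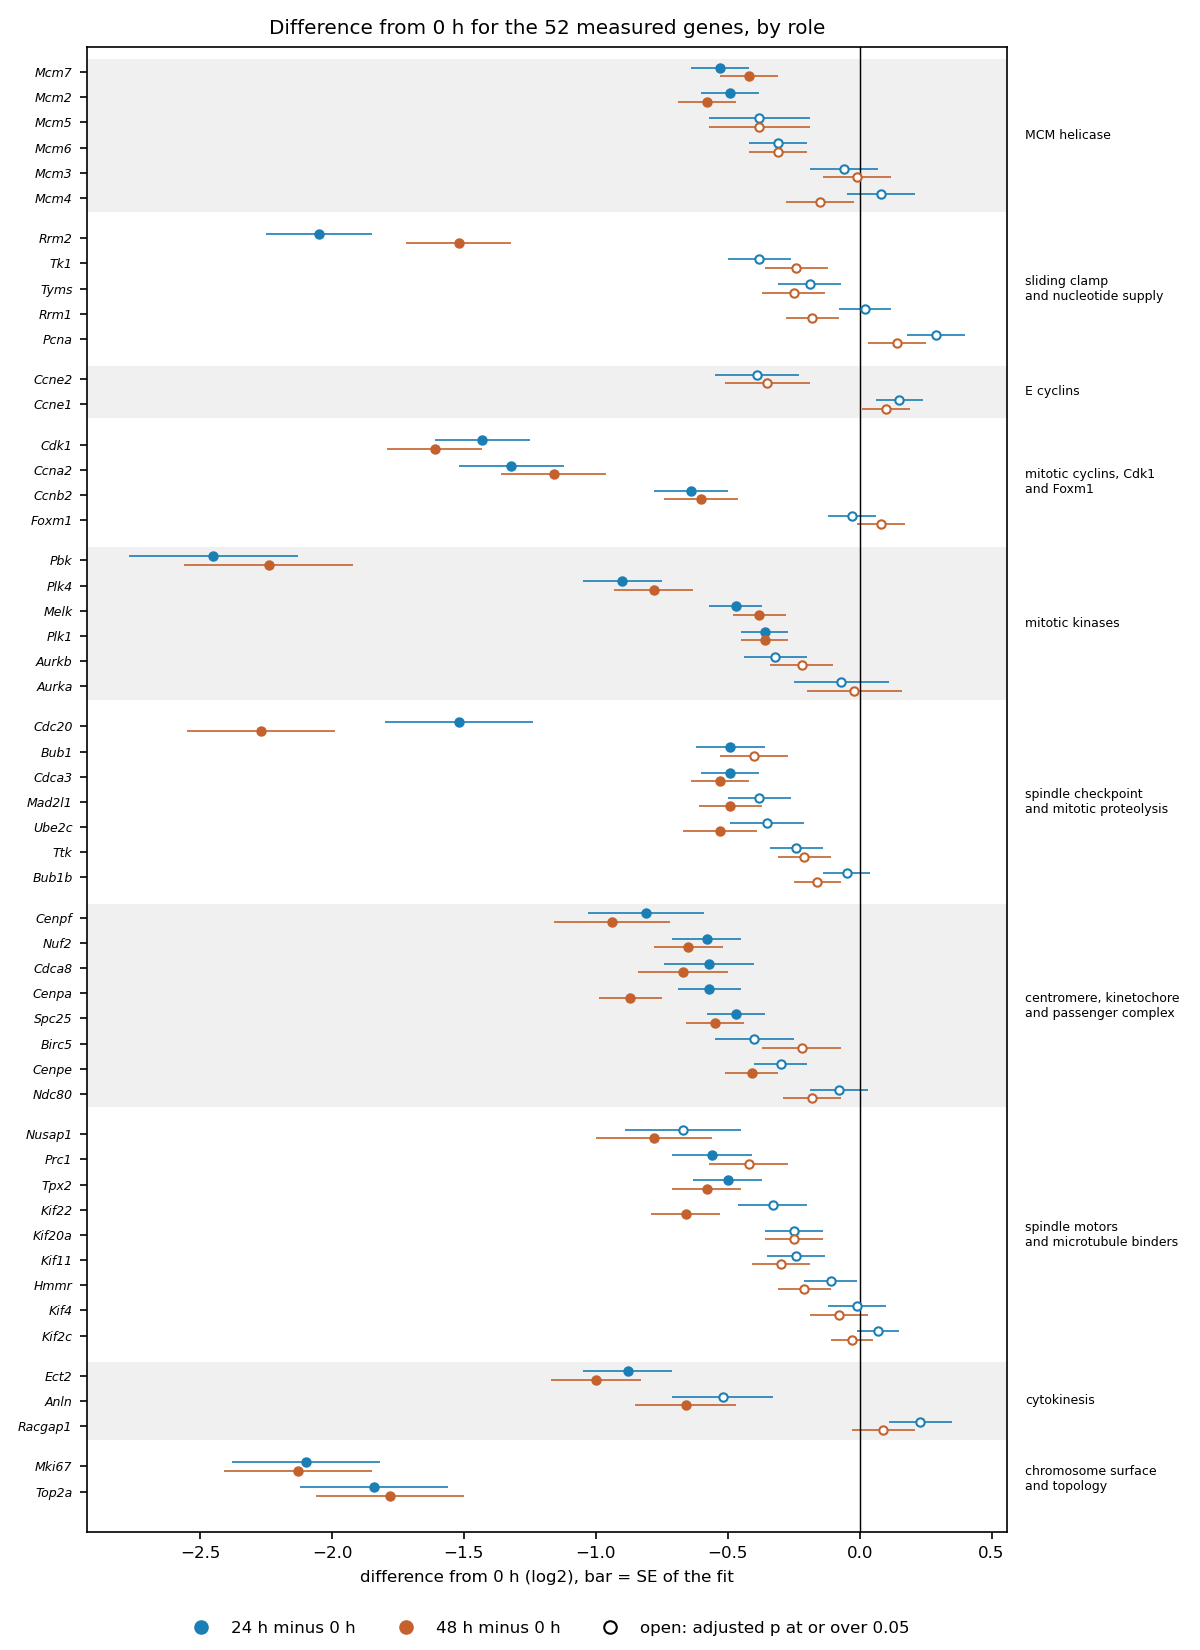
Difference from 0 h (log2, horizontal axis) of the 52 measured genes, grouped by role, at 24 h (blue) and 48 h (orange); bars are limma standard errors and open points did not pass at an adjusted p under 0.05. The farthest points to the left are Pbk, Mki67, Rrm2, Top2a, Cdc20, Cdk1 and Ccna2, and the points of the MCM genes lie between -0.58 and 0.08.

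Of the 13 replication genes, Mcm2, Mcm7 and Rrm2 fell at 24 h and the same 3 at 48 h, and the median difference was -0.31 and -0.25. Of the 39 mitotic genes, 20 fell at 24 h and 24 at 48 h, with medians of -0.47 and -0.53. The difference between the 2 classes was not tested. Over all genes 6.66% fell at 24 h and 5.27% at 48 h, and these shares also stand beside the counts by role below.

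The MCM genes encode the 6 subunits of the replicative helicase. Mcm2 read 7.33, 7.23, 7.30, 7.68 and 7.36 on the 0 h arrays of batches 1, 2, 3, 4 and 6. Its lowest, median and highest values were 6.62, 6.99 and 7.06 at 24 h and 6.51, 6.89 and 6.99 at 48 h. Every cultured array was thus below every 0 h array. Mcm2 fell by 0.49 (SE 0.11, adjusted p = 0.00872) at 24 h, and the 48 h difference was -0.58 (SE 0.11, adjusted p = 0.00254). A second Mcm2 probe set fell as well, by 0.67 at 24 h and 0.79 at 48 h. Mcm7 read 8.09, 7.93, 8.26, 8.19 and 7.80 at 0 h. At 24 h its values ran from 7.19 through a median of 7.54 to 7.75, and at 48 h from 7.42 through 7.66 to 7.87. The 24 h arrays lay below all 0 h arrays, while the 48 h arrays overlapped them. Mcm7 differed from 0 h by -0.53 at 24 h (SE 0.11, adjusted p = 0.00393) and by -0.42 at 48 h (SE 0.11, adjusted p = 0.0227). The 48 h call of Mcm7 was lost with the batch as a block (adjusted p = 0.0535). Of its 3 other probe sets 0 passed at 24 h and 1 fell at 48 h, by 0.64. Both calls were lost when _x_at and _s_at probe sets, which can match several transcripts, were left out (adjusted p = 0.304 and 0.677).

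The other 4 MCM genes passed at neither time. Mcm6 came nearest: it read 7.51, 7.22, 7.34, 7.56 and 7.17 at 0 h, with a median of 7.08 at 24 h (6.70 to 7.30) and of 7.07 at 48 h (6.90 to 7.23). The groups overlapped, although the value was lower in 5 of 5 batches at both times; the difference was -0.31 at both (SE 0.11, adjusted p = 0.0882 and 0.0831). Mcm5 read 5.61, 6.07, 5.09, 5.60 and 5.73 at 0 h, then a median of 5.30 at 24 h (4.71 to 5.53) and again of 5.30 at 48 h (4.61 to 5.66). Its spread at 0 h (SD 0.35, n = 5) was nearly as large as its differences of -0.38. Mcm3 read 4.42, 4.28, 4.58, 4.45 and 4.12 at 0 h, with medians of 4.31 (3.96 to 4.63) and 4.40 (3.96 to 4.71) afterwards. Mcm4 read 6.49, 6.39, 6.11, 6.53 and 6.19, then medians of 6.42 (6.08 to 6.73) and 6.16 (5.81 to 6.62). Both genes overlapped fully between times, with differences of -0.06 and -0.01 for Mcm3 (SE 0.13) and 0.08 and -0.15 for Mcm4 (SE 0.13).

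Among the genes of the replication fork and of nucleotide supply, Rrm2 fell and its partner Rrm1 did not pass. Rrm2, the subunit of ribonucleotide reductase whose level limits the enzyme, read 5.41, 5.12, 5.23, 5.59 and 4.68 at 0 h. It ran from 2.61 through a median of 3.16 to 3.55 at 24 h, and from 3.29 through 3.53 to 4.38 at 48 h. No array at either later time reached the lowest 0 h array. The difference was -2.05 at 24 h (SE 0.20, adjusted p = 1.93e-06) and -1.52 at 48 h (SE 0.20, adjusted p = 7.29e-05). The 24 h mean of 3.16 lay below the table's median, and the 48 h mean was 0.53 higher, a difference that did not pass (adjusted p = 0.282). A second Rrm2 probe set fell too, by 0.91 and 0.59, and another, below the table's median at all times, differed by -0.04 and -0.01. Rrm1, the other subunit of ribonucleotide reductase, differed by 0.02 at 24 h (SE 0.10, adjusted p = 0.936) and by -0.18 at 48 h (SE 0.10, adjusted p = 0.326).

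Of the 52 genes, 6 had a higher mean at 24 h than at 0 h. Among these, Pcna, the sliding clamp that holds DNA polymerases on their template, had the largest difference. It read 8.51, 8.40, 8.73, 8.20 and 8.51 at 0 h, then 8.39 to 9.13 with a median of 8.74 at 24 h, and 8.47 to 8.74 with a median of 8.60 at 48 h. Values at 24 h were higher in 5 of 5 batches, but the groups overlapped. The difference was 0.29 at 24 h (SE 0.11, adjusted p = 0.124) and 0.14 at 48 h (SE 0.11, adjusted p = 0.54). Without replicate 5 at 24 h, the lowest array of its time, the 24 h difference was 0.36 and passed (adjusted p = 0.0294). Tyms and Tk1, which make and salvage thymidylate, differed by -0.19 and -0.38 at 24 h and by -0.25 and -0.24 at 48 h, with 0 calls.

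The E cyclins, which pair with CDK2 to start S phase, did not pass. Ccne1 read 5.59, 5.72, 5.47, 5.55 and 5.69 at 0 h, with medians of 5.83 at 24 h (5.52 to 5.89) and 5.71 at 48 h (5.46 to 5.96). Ccne2 read 6.06, 6.34, 5.42, 6.21 and 5.96 at 0 h, with medians of 5.66 at 24 h (5.18 to 6.04) and 5.67 at 48 h (5.40 to 5.90). The arrays of the 3 times overlapped for both genes. The 24 h differences were 0.15 for Ccne1 (SE 0.09, adjusted p = 0.433) and -0.39 for Ccne2 (SE 0.16, adjusted p = 0.17), and the 48 h differences 0.10 and -0.35.

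**Figure D2:**
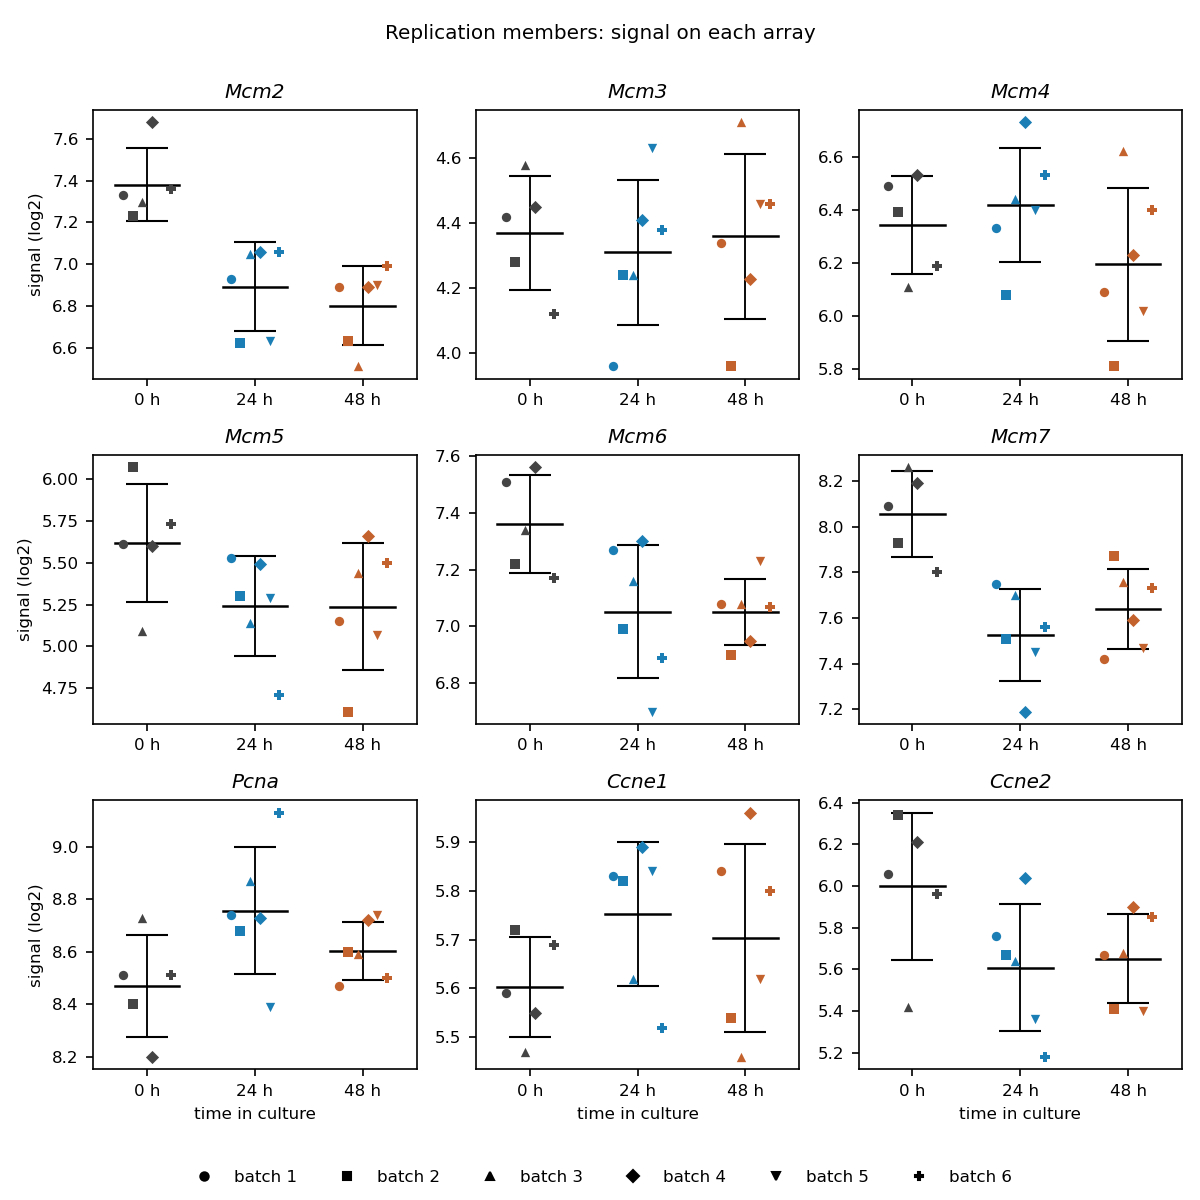
Signal (log2, vertical axis) of the 6 MCM genes, Pcna, Ccne1 and Ccne2 on each array at 0, 24 and 48 h; symbols are batches, long bars means and whiskers SD. Mcm2 is the one gene of the 9 whose arrays at both later times all lie below the 0 h arrays, and Pcna is higher at 24 h than at 0 h in each of the 5 batches with both.

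The mitotic cyclins and their kinase fell together. Cdk1, the kinase that drives entry into mitosis, read 5.25, 4.93, 5.19, 5.55 and 4.40 at 0 h. It ran from 3.25 to 3.99 at 24 h (median 3.63) and from 3.03 to 3.99 at 48 h (median 3.46). No later array reached the lowest 0 h array, and the fall within a batch was 1.15 to 1.56 at 24 h. The difference was -1.43 at 24 h (SE 0.18, adjusted p = 3.71e-05) and -1.61 at 48 h (SE 0.18, adjusted p = 1.42e-05). Ccna2, cyclin A2, read 5.23, 4.34, 4.70, 5.51 and 4.27 at 0 h, then 3.06 to 3.74 (median 3.55) at 24 h and 3.32 to 3.98 (median 3.62) at 48 h. Its later arrays were again all below the 0 h arrays, the differences being -1.32 (SE 0.20, adjusted p = 0.000172) and -1.16 (SE 0.20, adjusted p = 0.00073). A second Ccna2 probe set fell by 0.62 and 0.74. Ccnb2, cyclin B2, fell by 0.64 at 24 h and 0.60 at 48 h. Foxm1, a transcription factor of mitotic genes, differed by -0.03 and 0.08 (SE 0.09, adjusted p = 0.917 and 0.689).

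Of 6 mitotic kinases, 4 fell at both times. Pbk, a kinase active in mitotic cells, had the largest 24 h fall among the genes whose 24 h mean stayed above the table's median. Its 1 probe set is of the _s_at kind, so Pbk was not tested without that kind. It read 7.43, 6.44, 6.84, 7.86 and 5.81 at 0 h, then 3.84 to 4.84 at 24 h (median 4.48) and 3.79 to 5.31 at 48 h (median 4.76). The groups did not overlap despite an SD of 0.81 (n = 5) at 0 h. The difference was -2.45 at 24 h (SE 0.32, adjusted p = 4.14e-05) and -2.24 at 48 h (SE 0.32, adjusted p = 0.00015), and the mean linear signal dropped to 0.167 and 0.199 of that at 0 h. Plk4, which controls centriole duplication, read 4.94, 5.38, 5.20, 5.75 and 5.47 at 0 h, then 4.02 to 4.74 (median 4.49) and 4.16 to 4.81 (median 4.59). Its arrays did not overlap either, and it differed by -0.90 (SE 0.15, adjusted p = 0.000524) and -0.78 (SE 0.15, adjusted p = 0.00234). Neither of the 2 other Plk4 probe sets passed, so without the _s_at probe set the calls were lost (adjusted p = 0.553 and 0.0806). Melk fell by 0.47 and 0.38, and Plk1, which acts from mitotic entry to cytokinesis, by 0.36 at both times. The 48 h call of Melk was lost without replicate 3 at 0 h (adjusted p = 0.0683) and without the 2 arrays that stood apart (adjusted p = 0.0664). The Plk1 calls were lost without replicate 4 at 0 h (adjusted p = 0.0658 and 0.0608). The Aurora kinases passed at neither time, with differences of -0.07 and -0.02 for Aurka and -0.32 and -0.22 for Aurkb.

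Cdc20 led the 7 genes of the spindle checkpoint and of mitotic proteolysis. It activates the anaphase-promoting complex, and read 6.51, 6.32, 6.68, 6.94 and 5.15 at 0 h. It ran from 4.36 to 5.28 at 24 h (median 4.92) and from 3.55 to 4.90 at 48 h (median 4.01). Replicate 6 at 0 h was low enough to overlap the 24 h arrays, while the 48 h arrays all lay below the 0 h arrays. The difference was -1.52 at 24 h (SE 0.28, adjusted p = 0.00134) and -2.27 at 48 h (SE 0.28, adjusted p = 2.99e-05). A second probe set fell by 0.60 and 0.91, and another, at -0.16 and -0.35, passed at 48 h. Between 24 and 48 h the difference of -0.75 did not pass (adjusted p = 0.261). Ube2c, the ubiquitin-conjugating enzyme of the same complex, differed by -0.35 at 24 h (adjusted p = 0.144) and fell by 0.53 at 48 h, and Cdca3 fell by 0.49 and 0.53. The 2 other probe sets of Cdca3 passed at neither time, and with the mean of the 3 its 24 h call was lost (adjusted p = 0.0673). Of the checkpoint genes, Bub1 was called at 24 h and Mad2l1, whose protein holds CDC20 inactive, at 48 h (-0.49, adjusted p = 0.0168). Bub1b and Ttk passed at neither time. The Bub1 call at 24 h was lost without replicate 2 at 0 h (adjusted p = 0.0676), and the 48 h calls of Mad2l1 and Ube2c without replicate 4 at 0 h (adjusted p = 0.055 and 0.0612).

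At the centromere and kinetochore, 5 of 8 genes fell at 24 h and 6 at 48 h. Cenpa, the centromeric histone H3 variant, fell by 0.57 at 24 h and 0.87 at 48 h with no overlap at either time. Its other probe sets, below the table's median, differed by -0.04 and -0.07 at 24 h and by 0.09 and 0.08 at 48 h. Cenpf fell by 0.81 and 0.94. Its 24 h call was lost in 5 of 17 fits with 1 array left out, as without replicate 4 at 0 h (adjusted p = 0.065). That call was also lost with the mean of the Cenpf probe sets, the others of which differed by -0.03 and 0.19 at 24 h. Cdca8, borealin of the chromosomal passenger complex, fell by 0.57 and 0.67, and a second probe set by 1.29 and 1.56. Both are of the _s_at kind. The remaining Cdca8 probe set differed by -0.06 and -0.16, so the calls were lost without that kind (adjusted p = 0.812 and 0.366). Its calls on the first probe set were lost without replicate 4 at 0 h (adjusted p = 0.112 and 0.0531). The 24 h call of Cdca8 was lost in 8 of 17 fits with 1 array left out. Birc5, survivin of the same complex, passed at neither time (-0.40 and -0.22). The NDC80 complex binds microtubules at the kinetochore, and its genes moved unequally: Nuf2 fell by 0.58 and 0.65, Spc25 by 0.47 and 0.55, and Ndc80 itself differed by -0.08 and -0.18 with 0 calls. Cenpe, a kinetochore motor, was called at 48 h alone (-0.41), and the call was lost without replicate 3 at 0 h (adjusted p = 0.0504).

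The Spc25 probe set read 11.16, 11.37, 11.52, 11.77 and 11.49 at 0 h, far above its second probe set at a mean of 4.90, which differed by -0.14 and -0.16 with 0 calls. In the RefSeq gene table Spc25 lies next to G6pc2, the islet glucose-6-phosphatase subunit, with 0 genes between them. G6pc2, looked up after the Spc25 level was seen, had a mean of 11.69 at 0 h and fell by 0.29 (adjusted p = 0.0176) and 0.31 (adjusted p = 0.0129). With the mean of both Spc25 probe sets the 24 h call was lost (adjusted p = 0.0612). The part of the neighbour in the Spc25 signal was not tested.

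Of the 9 spindle motors and microtubule binders, 2 fell at 24 h and 3 at 48 h. Tpx2, which activates Aurora A on the spindle, fell by 0.50 and 0.58, and its 24 h call was lost without replicate 3 at 0 h (adjusted p = 0.0511). The other Tpx2 probe sets passed at neither time, and the 24 h call was also lost with the mean of its probe sets. Prc1, which bundles microtubules of the central spindle, fell by 0.56 at 24 h. This call was lost in 6 of 17 fits with 1 array left out, as without replicate 1 at 0 h (adjusted p = 0.0703). The second Prc1 probe set fell at both times, by 0.48 and 0.36. Kif22, a chromosome-arm motor, fell by 0.66 at 48 h with no overlap, on an _x_at probe set whose removal ended the call (adjusted p = 0.3). Nusap1 fell by 0.78 at 48 h. This call was lost in 7 of 17 fits with 1 array left out, as without replicate 3 at 0 h (adjusted p = 0.0852). The Nusap1 call was also lost with the batch as a block (adjusted p = 0.0747). The motors Kif11, Kif20a, Kif2c and Kif4, and Hmmr, passed at neither time. Of the 3 cytokinesis genes, Ect2, the exchange factor that activates RhoA at the cleavage furrow, fell by 0.88 and 1.00 with no overlap. Anln fell by 0.66 at 48 h. This call was lost in 6 of 17 fits with 1 array left out, as without replicate 4 at 0 h (adjusted p = 0.1). Racgap1 differed by 0.23 and 0.09 with 0 calls.

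Mki67 and Top2a, the most used markers of cycling cells, fell by about 4-fold. Mki67, which coats mitotic chromosomes, read 7.04, 6.90, 6.71, 7.32 and 5.99 at 0 h. It ran from 3.98 to 5.04 at 24 h (median 4.86) and from 3.94 to 5.42 at 48 h (median 4.50), with no overlap with 0 h. The difference was -2.10 at 24 h (SE 0.28, adjusted p = 5.45e-05) and -2.13 at 48 h (SE 0.28, adjusted p = 6.11e-05), with a fall of 1.68 to 2.57 within each batch at 24 h. Top2a, the topoisomerase that untangles sister chromatids, read 6.11, 5.50, 5.75, 6.59 and 4.47 at 0 h, then 3.61 to 4.02 (median 3.86) and 3.23 to 4.50 (median 3.84). The 24 h arrays lay below all 0 h arrays, and at 48 h 1 array passed the low replicate 6. The difference was -1.84 (SE 0.28, adjusted p = 0.000216) and -1.78 (SE 0.28, adjusted p = 0.000394). Its 2 other probe sets, both below the table's median, did not pass.

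**Figure D3:**
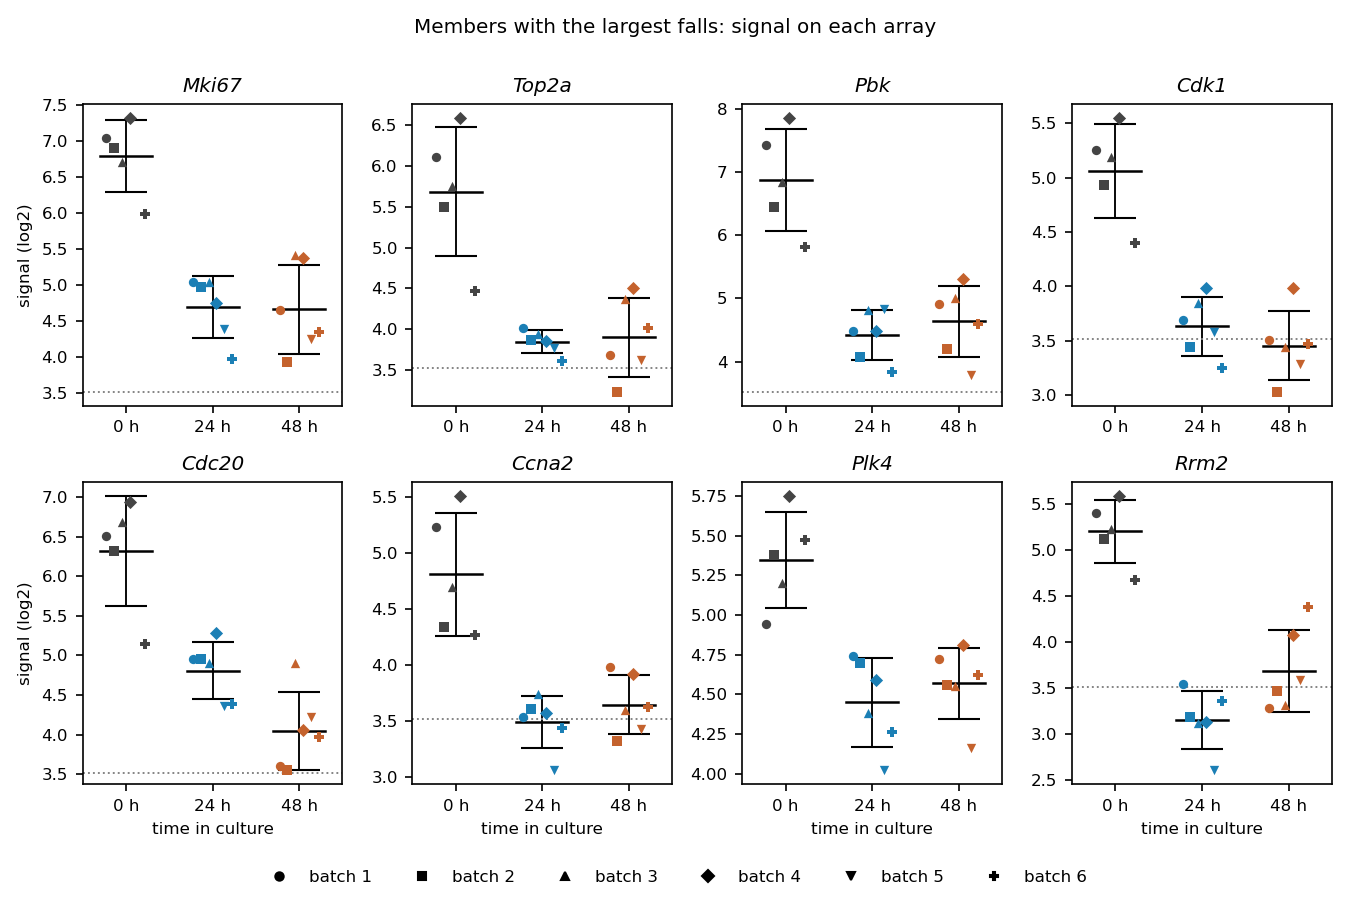
Signal (log2, vertical axis) on each array at 0, 24 and 48 h for the 8 genes with the largest 24 h falls among those above the table's median at 0 h or 24 h; symbols are batches, long bars means, whiskers SD, and the dotted line is the table's median of 3.52. Batch 4 is the highest 0 h point in all 8 panels and batch 6 the lowest in 7, Plk4 being the exception.

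The 4-fold line that the study used to pick genes was applied to the mean linear signal. At 24 h Rrm2, Pbk and Mki67 were under 0.25-fold of 0 h, at 0.241, 0.167 and 0.231, against 0.203% of all genes. At 48 h Pbk, Cdc20 and Mki67 were, at 0.199, 0.202 and 0.236, against 0.308% of all genes.

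Genes with and without a CHR match were both among those that fell. Of the 26 measured genes with a match, 14 fell at 24 h and 16 at 48 h, with median differences of -0.48 and -0.54. Of the 18 measured genes with a window and no match, 6 fell at 24 h and 8 at 48 h, with medians of -0.38 and -0.38. The shares of all genes falling were 6.66% at 24 h and 5.27% at 48 h. The set without a match held every replication gene with a window but Mcm2, so the contrast largely repeats the split by role. Of the mitotic genes in this set, Bub1, Melk, Nuf2 and Plk4 fell at 24 h, and Birc5, Cenpe, Mad2l1 and Nusap1 did not. At 48 h all of these mitotic genes but Birc5 and Bub1 fell. Mcm7 and Rrm2, of the replication class, also fell without a CHR match in their window. Aurka, Bub1b and Kif4 held one and did not pass. Another Bub1b probe set did fall at 24 h (-0.84, limma's adjusted p = 0.0384), and Kif4 stayed below the table's median on all 17 arrays. Whether the match and the fall go together was not tested.

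The 0 h arrays differed among themselves in the same genes. The mean of the 52 genes was 4.81 ± 0.21 (SD, n = 5) before culture, 4.29 ± 0.07 (SD, n = 6) after 24 h and 4.25 ± 0.12 (SD, n = 6) after 48 h. Replicate 4 was the highest 0 h array for 18 of the 23 genes that fell at 24 h, and replicate 6 the lowest for 15. Even so, the lowest 0 h mean of 4.53 lay above the highest later mean of 4.41. Without replicate 4 at 0 h, 18 genes fell at 24 h and 20 at 48 h. Replicate 4 at 0 h also had the highest mean of 9 acinar markers, 8.55, where the lowest 0 h array had 5.21. The part of this acinar signal in the result was not tested.

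Other genes of the same processes were read from lists outside the 53. Of 38 measured replication genes, 3 fell and 0 rose at 24 h, where 6.66% of all genes fell, and 0 passed at 48 h, with a median of -0.04 at both times (9 at an unadjusted p under 0.05 at 48 h). The 3 were the licensing factor Cdt1 (-0.86, adjusted p = 0.00739), the origin subunit Orc6 (-0.63, adjusted p = 0.0212) and Uhrf1 (-0.49, adjusted p = 0.0363), which marks newly copied DNA for methylation. Of 58 other mitosis genes, 11 fell and 1 rose at 24 h, and 16 fell and 1 rose at 48 h, with medians of -0.17 and -0.24. At 48 h 5.27% of all genes fell and 6.45% rose, and 5.44% rose at 24 h. The largest 24 h falls were in Stmn1, a microtubule destabiliser (-1.57 and -1.86), Cdca5, sororin of the cohesin ring (-1.39 and -1.03), Ncaph of condensin (-1.02 and -0.87), Cenpk (-0.84 and -0.67) and Cep55 (-0.72 and -0.62), given with their 48 h differences. The 1 that rose at both times was the kinetochore gene Zwint (0.44, adjusted p = 0.00089, and 0.41, adjusted p = 0.00172), named after its value was seen.

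Regulators upstream were read from further lists. The first held 20 genes for E2F factors and their partners, pocket proteins, MuvB complexes and Myc factors. Of the 20, Tfdp2 fell (-0.36, adjusted p = 0.0137) and E2f3 rose (0.35, adjusted p = 0.0445) at 24 h, and 0 passed at 48 h (1 at an unadjusted p under 0.05). Among all genes 6.66% fell and 5.44% rose at 24 h, and 5.27% fell and 6.45% rose at 48 h. Of 13 genes for D cyclins, their kinases and CDK inhibitors, Cdkn1a, which encodes the inhibitor p21, rose by 1.76 at 24 h (SE 0.14, adjusted p = 2.31e-07) and by 1.30 at 48 h (SE 0.14, adjusted p = 1.05e-05). Ccnd2, the main D cyclin of beta cells, fell by 0.69 and 0.59. Cdkn1c and Cdkn2c fell at 48 h, by 0.53 and 0.32.

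Markers of several cell types in the preparation fell over the same hours. Shares of all genes, for these lists and those of the next paragraph, were 6.66% falling and 5.44% rising at 24 h. At 48 h these shares were 5.27% and 6.45%. Of 11 endothelial markers, 5 fell at 24 h and 8 at 48 h, led by Plvap (-1.94 and -2.63), Flt1 (-1.44 and -1.90) and Kdr (-1.04 and -1.87). Their mean went from 5.65 to 5.95 over the 0 h arrays, to 5.07 to 5.31 at 24 h and 4.59 to 4.95 at 48 h. Of 11 macrophage markers, 6 fell and 1 rose at 24 h, and 3 fell and 2 rose at 48 h, the arrays ranging from 5.45 to 5.96, 4.87 to 5.33 and 5.21 to 5.68 at the 3 times. Csf1r fell by 1.58 and 1.21, while Cd68 rose by 1.84 and 2.16. Of 11 fibroblast, stellate and pericyte markers, 4 fell at 24 h, and 2 fell and 3 rose at 48 h; the mean ran from 4.64 to 4.90 at 0 h, 4.02 to 4.15 at 24 h and 4.41 to 4.72 at 48 h. Col3a1 fell by 1.10 at 24 h and rose by 1.71 at 48 h against 0 h, while Rgs5 of pericytes fell by 3.07 and 3.12. The mean of the mitotic genes was 3.80 ± 0.07 (SD, n = 6) after 24 h and 3.74 ± 0.13 (SD, n = 6) after 48 h.

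Of 9 acinar markers, 0 passed at 24 h (0 at an unadjusted p under 0.05) and 4 fell at 48 h, led by Cpb1 (-4.16), and the list's mean ranged from 5.21 to 8.55, 3.92 to 7.54 and 3.53 to 5.77. Of 9 endocrine markers, 5 fell at 24 h and 3 at 48 h, among them Sst (-1.27 and -1.31) and Slc2a2 (-0.75 and -0.45), with means from 11.38 to 11.73, 10.82 to 11.25 and 10.91 to 11.36. Of 5 duct markers, Krt7 rose at both times (1.19 and 0.87), and the means ran from 5.76 to 6.62, 6.08 to 6.26 and 5.82 to 6.11. Of 7 lymphocyte markers 0 passed at 24 h (0 at an unadjusted p under 0.05) and 0 at 48 h (1), with means between 3.27 and 3.48. The endocrine markers stayed high on every array, as the label of islet tissue says. What part the changes in cell types had in the falls of the proliferation genes was not tested.

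**Figure D4:**
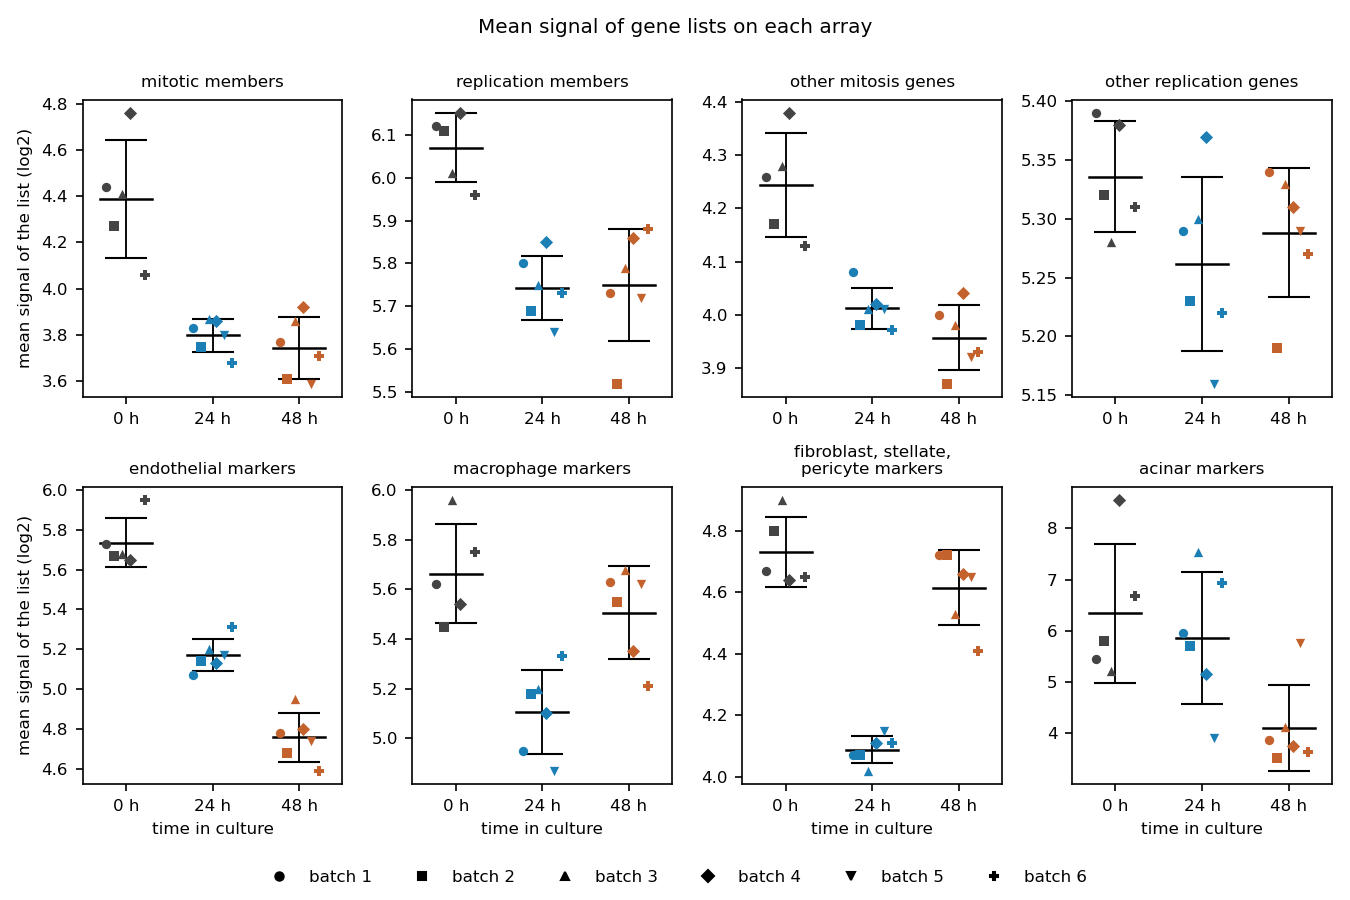
Mean signal (log2, vertical axis) of 8 gene lists on each array at 0, 24 and 48 h; symbols are batches, long bars means and whiskers SD. The mitotic genes are lower on all 12 cultured arrays than on any of the 5 arrays at 0 h, the endothelial markers decline at each step, and the fibroblast, stellate and pericyte markers are low at 24 h and higher again at 48 h.

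Agreement between probe sets of a gene was partial. The 52 genes had 118 probe sets, and 35 genes had several. Of the 66 probe sets not used above, 8 fell and 0 rose at 24 h, and 11 fell and 0 rose at 48 h. Of all 45037 probe sets, 2125 fell and 1737 rose at 24 h, and 1713 fell and 2102 rose at 48 h. Of 15 called genes with several probe sets at 24 h, 6 had another that fell, and at 48 h 7 of 17. Bub1b and Anln at 24 h, and Hmmr, Kif2c and Prc1 at 48 h, fell by another probe set only, which was not the one used in the counts.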

How the data were processed

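RNA of whole islets was amplified, labelled with biotin and hybridised to Affymetrix GeneChip mouse genome arrays, 1 per batch and time, per the labels. The authors deposited log2 signals, 1 per probe set and array, and the submitters' processing notes name RMA as the method (version not given in the sources used here). That the logarithm has base 2 was taken from the range of the values, 1.55 to 13.81. RMA quantile-normalises the arrays, which removes a change shared by most transcripts and compresses differences of weak signals. No detection call was used.

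Of 45101 probe sets, 64 controls were left out. limma (version 3.58.1, R 4.3.3) fitted 1 mean per time to all 17 arrays with lmFit and eBayes, and p-values were adjusted by Benjamini-Hochberg over 45037 probe sets. Each gene took the probe set with the highest mean over the 17 arrays. The genes and lists were chosen with earlier results of these data known, so no p-value over a list is given. Values on every array were to be given for the 8 largest 24 h falls among genes above the table's median at 0 h or 24 h, for any that rose, and for Mki67, Top2a, Pcna, Cdk1, the E cyclins and the MCM genes. Up to 6 changed genes of each other pathway list, all of the D cyclin and inhibitor list, and up to 3 of each cell type list were to be named. The script was tested on simulated data.

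Batch numbers come from the study's design text and pair the arrays. Deviations from the means of their times correlated over the 16 pairs of 1 batch with a median of 0.00545 (-0.159 to 0.274), above 0.1 in 4 pairs. Each batch is a separate pool of islets, and the number of arrays limits the precision. Other settings tried were a fixed or random batch effect, complete batches, array weights, another prior, median centring, renormalisation, a filter on level, probe sets without _x_at and _s_at kinds, the mean of a gene's probe sets, only the arrays compared, and each array left out in turn; leaving out the 2 arrays that stood apart was chosen after seeing the data.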

Additional observations from a re-analysis of the deposited data

Results flagged for a closer look

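In 159 groups of values, 6 held an array far from the rest, where chance gives about 1 in 20. Most groups are a gene at 1 time, on 5 or 6 arrays. The measure is the gap to the nearest other array over the group's range. For Kif22 at 0 h, replicate 4 was highest at 7.29 with the highest of the others at 7.04, a gap of 0.879 of the range. For Cenpa at 0 h, replicate 4 was highest at 4.10 with the others from 3.65 to 3.71 (0.862). For Ube2c at 24 h, replicate 2 was lowest at 2.79, the others reading 3.23 to 3.36 (0.775). For Ttk at 0 h, replicate 6 was lowest at 2.57, the others reading 2.91 to 3.04 (0.732), and at 48 h replicate 1 was highest at 3.03, the others reading 2.50 to 2.69 (0.644). For Bub1b at 24 h, replicate 5 was highest at 4.20, with the others between 3.80 and 3.92 (0.695).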

How the results depend on the processing

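Over 29 alternative settings, 0 called differences reversed, and 13 of the 23 falls at 24 h and 16 of the 27 at 48 h passed in every setting that tested the gene. Leaving out single arrays gave 18 to 25 falls at 24 h (main value 23), 20 to 29 at 48 h (27) and 0 to 1 rise at 24 h, the 1 being Pcna without replicate 5 at 24 h. Pcna was also the 1 gene that rose with array weights (adjusted p = 0.0318), with complete batches (0.0314) and without the 2 arrays that stood apart (0.0101). With the filter on level, 16 genes fell at 48 h, since only 30 were tested. In the other settings 17 to 26 genes fell at 24 h and 16 to 29 at 48 h, and the median difference stayed between -0.42 and -0.30 at 24 h and between -0.46 and -0.30 at 48 h. With the replicate block (batch as a fixed effect), 24 genes fell at 24 h and 27 at 48 h. Besides the calls of Mcm7 and Nusap1 lost at 48 h, the block added Anln at 24 h (adjusted p = 0.0433) and Kif11 (0.0373) and Prc1 (0.0289) at 48 h, and it changed no other call. Of the 52 genes, 22 had a mean at or below the table's median, where RMA compresses differences. Where a call was lost without any of several single arrays, the array named above gave the highest adjusted p when left out. Causes of lost calls were not tested beyond what each setting's construction shows.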
